A study of Mus musculus with 19 samples.

Results

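Cytochrome c oxidase, complex IV of the respiratory chain, carries nuclear-encoded subunits that exist as tissue isoforms, and the 8 genes of 4 such isoform pairs are described here: Cox4i1 and Cox4i2, Cox6a1 and Cox6a2, Cox7a1 and Cox7a2, and Cox8a and Cox8b. The genes were taken by symbol, and all 8 of 8 were listed in each table, among 55573 genes for 7 tissues, 55487 for cold brown adipose tissue (BAT) and 13756 for cold inguinal white adipose tissue (iWAT). RNA-Seq of 19 mouse libraries was used. In 7 of them, small intestine, brain, liver, heart, tibialis anterior (TA) muscle and the white and brown adipose tissues of C57BL/6J wild type (WT) male mice on chow, 2 to 8 months old by the study's general range for chow-fed mice, were measured, with 1 library per tissue and no replicate. The other 12 libraries came from iWAT and BAT of male WT and MCK-Musclin mice, 3 per tissue and genotype, all 5 months old, fed chow and kept at 8 °C for 1 week before sampling. MCK-Musclin mice carry the coding sequence of Musclin, a peptide secreted by muscle and encoded by Ostn, behind the muscle creatine kinase promoter that is active in skeletal muscle, on a C57BL/6J background. The study stated that RNA came from biologically independent animals within a group. Which of 5 founder lines was used, and whether iWAT and BAT came from the same animals, was not given in the sources used here. The comparison of genotypes addressed whether circulating Musclin changes the thermogenic program of fat, and the 7 tissues gave the normal distribution of the isoforms.

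Complex IV passes electrons from cytochrome c to oxygen at the inner mitochondrial membrane and pumps protons while it does so. Its catalytic core is encoded by mitochondrial DNA, and the small nuclear-encoded subunits around it modulate activity, assembly and dimer formation. COX6A2, COX7A1 and COX8B are known as the heart and skeletal muscle forms, COX6A1, COX7A2 and COX8A as the forms of most other tissues, and COX4I2 as a form of lung and of oxygen-sensing cells such as pericytes, where COX4I1 is the general form. Cox7a1 and Cox8b are also widely used as marker genes of brown and beige adipocytes, and Cox8b is a pseudogene in humans. In the following, Cox4i2, Cox6a2, Cox7a1 and Cox8b are called the restricted isoforms.

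Levels are given in FPKM, fragments per kilobase of exon, scaled by the authors to the mapped fragments of the library, so that genes can be compared within a library. The FPKM of a library summed to between 393682 and 711437 in the 7 tissues, 676362 and 720852 in BAT and 364710 and 384104 in iWAT, and the number of reads behind a value was not given. The 3 sets were deposited as separate tables, so tests were made within a table only. Marker genes matched the tissue labels: the 9 cardiac markers summed to 33291 FPKM in heart and at most 223 in any other tissue, the 19 fast muscle markers to 149968 FPKM in TA muscle and at most 924 elsewhere, and Ucp1, the uncoupling protein of brown fat, reached 467 FPKM in brown adipose tissue and at most 0.0355 FPKM in the other 6. In the cold libraries Ostn was at 37.9, 31.6 and 30.3 FPKM in the 3 MCK-Musclin BAT libraries and at 0 in the 3 WT BAT libraries. In iWAT it was at 0, 5.17 and 4.21 FPKM in the libraries labelled MCK-Musclin 1, 2 and 3 and at 0, 0 and 0.225 FPKM in WT 1, 2 and 3. The transgene transcript therefore did not check the label of the iWAT library labelled MCK-Musclin 1, in which Ckm, the muscle gene whose promoter drives the transgene, was at 0 as well, and the iWAT results of the isoforms are given with and without it. Of the hepatocyte markers, 0 were called in either tissue, and those of enterocytes and neurons were not tested in either.

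The members of a pair share little continuous sequence. Between the coding sequences, without the stop codon, 64.0% of aligned positions were identical for Cox4i2 and Cox4i1, 56.5% for Cox6a2 and Cox6a1, 61.6% for Cox7a1 and Cox7a2 and 53.0% for Cox8b and Cox8a, and the longest shared runs were 14, 12, 12 and 10 bases. The coding sequences of the Cox7a and Cox8 pairs are shown because their restricted members are the brown fat markers, with the longest run shared within the pair in capitals (GENCODE transcripts, GRCm38, 5′ to 3′).
Cox7a1: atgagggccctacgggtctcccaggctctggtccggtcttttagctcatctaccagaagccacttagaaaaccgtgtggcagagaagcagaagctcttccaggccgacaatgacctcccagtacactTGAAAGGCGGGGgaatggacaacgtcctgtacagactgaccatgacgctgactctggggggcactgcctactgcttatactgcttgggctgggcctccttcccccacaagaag
Cox7a2: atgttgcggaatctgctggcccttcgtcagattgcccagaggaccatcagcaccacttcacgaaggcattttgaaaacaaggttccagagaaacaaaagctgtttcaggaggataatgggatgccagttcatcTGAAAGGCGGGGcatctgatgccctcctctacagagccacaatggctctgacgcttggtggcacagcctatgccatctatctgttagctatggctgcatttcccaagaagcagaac
Cox8b: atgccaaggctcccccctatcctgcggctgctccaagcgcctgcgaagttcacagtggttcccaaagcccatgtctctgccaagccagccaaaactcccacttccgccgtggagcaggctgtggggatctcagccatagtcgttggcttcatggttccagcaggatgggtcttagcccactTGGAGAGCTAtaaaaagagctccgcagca
Cox8a: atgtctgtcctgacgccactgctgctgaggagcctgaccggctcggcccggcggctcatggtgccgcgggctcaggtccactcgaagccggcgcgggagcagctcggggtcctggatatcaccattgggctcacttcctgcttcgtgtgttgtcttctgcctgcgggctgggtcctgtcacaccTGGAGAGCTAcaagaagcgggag

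Of the 50-base windows of the main transcript, 0 were found in a transcript of another gene for Cox4i2, Cox7a1, Cox7a2, Cox8a and Cox8b. Cox4i1 shared 85 of 696 windows with the overlapping gene Emc8, which was at 1.28 to 12.3 FPKM in the 7 tissues, and Cox6a1 shared 64 of 522 with a processed copy that was at 0 to 0.620 FPKM in the 7 tissues and BAT. Cox6a2 shared 21 of 631 with Itgad, an integrin gene that it overlaps and that was at 0 to 0.118 FPKM. Because the alignment did not use strand, reads of the overlapped parts of Cox4i1 and Cox6a2 could not be assigned with certainty.

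The 4 genes of the Cox7a and Cox8 pairs lie apart from each other in the genome (GRCm38): Cox7a1 at chr7:30184144-30186078 on the plus strand, Cox7a2 at chr9:79755361-79759878, Cox8a at chr19:7215153-7217616 and Cox8b at chr7:140898945-140900446, all 3 on the minus strand. The other pairs lie at chr8:120668222-120674207 (Cox4i1, plus), chr2:152754173-152765037 (Cox4i2, plus), chr5:115345642-115348981 (Cox6a1, minus) and chr7:128205435-128206387 (Cox6a2, minus). RefSeq promoter windows (GRCm38.p6) matched 5 of the 8 genes, Cox6a1, Cox7a1, Cox7a2, Cox8a and Cox8b. The 250 bases before the RefSeq start are shown for the same pairs, 5′ to 3′ on the strand of the gene, and capitals mark the motif matches described next.
Cox7a1 (chr7:30183921-30184170, plus strand): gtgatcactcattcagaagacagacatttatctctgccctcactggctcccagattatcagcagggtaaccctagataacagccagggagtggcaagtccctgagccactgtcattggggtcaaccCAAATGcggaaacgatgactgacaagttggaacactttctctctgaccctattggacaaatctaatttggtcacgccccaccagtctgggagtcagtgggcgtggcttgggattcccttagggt
Cox7a2 (chr9:79759854-79760103, minus strand): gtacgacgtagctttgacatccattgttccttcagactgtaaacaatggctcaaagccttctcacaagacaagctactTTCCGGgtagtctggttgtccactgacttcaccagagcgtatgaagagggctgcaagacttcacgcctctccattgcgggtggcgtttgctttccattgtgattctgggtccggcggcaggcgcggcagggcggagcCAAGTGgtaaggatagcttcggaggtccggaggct
Cox8b (chr7:140900447-140900696, minus strand): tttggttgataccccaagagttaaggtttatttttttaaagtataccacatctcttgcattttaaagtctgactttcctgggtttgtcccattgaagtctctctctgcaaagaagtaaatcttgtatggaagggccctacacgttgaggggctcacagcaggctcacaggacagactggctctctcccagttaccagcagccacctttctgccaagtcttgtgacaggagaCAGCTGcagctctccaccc
Cox8a (chr19:7217617-7217866, minus strand): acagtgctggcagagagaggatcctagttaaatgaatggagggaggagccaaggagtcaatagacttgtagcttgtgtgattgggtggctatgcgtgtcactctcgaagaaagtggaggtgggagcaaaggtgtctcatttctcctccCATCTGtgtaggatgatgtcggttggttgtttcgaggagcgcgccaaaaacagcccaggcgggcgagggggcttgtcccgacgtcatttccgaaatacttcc

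The windows were searched on both strands for CANNTG (E-box), TATAAA, TGACGTCA (cyclic AMP response element), AAGGTCA (half-site of estrogen-related receptors), CCGGAA (ETS factors) and the cores of the NRF1 and MEF2 sites. Each of the 4 windows held 1 E-box match, starting 124 bases before the start in Cox7a1, 35 in Cox7a2, 19 in Cox8b and 102 in Cox8a, and 66.2% of 32851 promoter windows of the same length held at least 1. Cox7a2 also held 1 ETS match, 172 bases before the start, which 12.03% of windows held, and no other motif matched in these 4. The windows differed in CpG dinucleotides: 4 in Cox7a1 and 1 in Cox8b against 14 in Cox7a2 and 11 in Cox8a, with a median of 6 over all windows. Cox6a1 held 26 CpG, 1 NRF1 match, found in 0.782% of windows, and 1 ETS match. These are matches of letters and no evidence of binding.

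In the 7 tissues the 3 muscle-type isoforms did not share 1 distribution. Heart and TA muscle held all 3, brown adipose tissue held Cox7a1 and Cox8b at high levels with little Cox6a2, and small intestine held Cox7a1 without Cox8b. With 1 library per tissue these are values without a test, and in bulk tissue more cells of a type and more RNA per cell cannot be told apart.

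**Figure D1:**
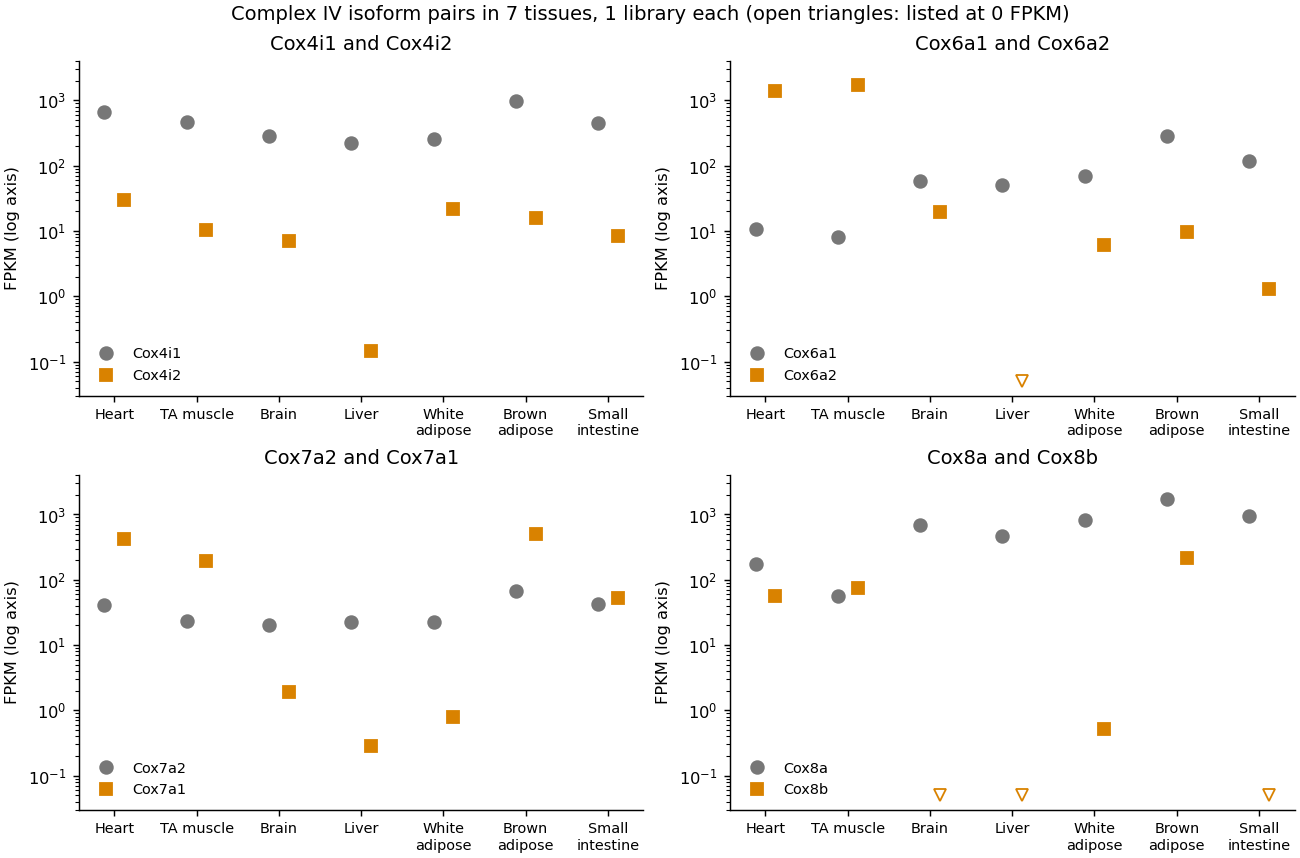
FPKM of the 4 isoform pairs (log axis) in 7 tissues of WT mice, 1 library each, with the general isoform as circles, the restricted isoform as squares and values listed at 0 as open triangles. Cox6a2 stands at 1388 and 1726 FPKM in heart and TA muscle and at most 19.3 elsewhere, whereas Cox7a1 and Cox8b are also high in brown adipose tissue.

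Cox6a2, the muscle form of the subunit that binds regulatory nucleotides, was high in heart and TA muscle alone. It was at 1726 FPKM in TA muscle, 1388 in heart, 19.3 in brain, 9.48 in brown adipose tissue, 6.06 in white adipose tissue and 1.27 in small intestine, and was listed at 0 in liver. Heart stood 71.9-fold above brain, the next tissue. Its partner Cox6a1 ran the other way, with 280 FPKM in brown adipose tissue, 118 in small intestine, 68.9 in white adipose tissue, 57.9 in brain, 51.0 in liver, 10.7 in heart and 8.09 in TA muscle. The share of Cox6a2 in the FPKM of the pair was thus 99.5% in TA muscle and 99.2% in heart, 25.02% in brain, 8.08% in white adipose tissue, 3.27% in brown adipose tissue, 1.06% in small intestine and 0 in liver. Skeletal muscle transcripts accompanied Cox6a2 in fat: Ckm, muscle creatine kinase, was at 9.14 FPKM in white and 18.8 in brown adipose tissue, and the ratio of Cox6a2 to Ckm was 0.663 and 0.504 there against 0.435 in TA muscle. The ratio was 4.03 in heart and 0.923 in small intestine, and in brain it was 10.2, with Ckm at 1.89 FPKM. The part of muscle in these values was not tested.

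Cox7a1, the muscle form of a small membrane subunit, was highest in brown adipose tissue, at 508 FPKM, followed by heart at 423, TA muscle at 197 and small intestine at 53.4. Brain, white adipose tissue and liver held 1.88, 0.778 and 0.282 FPKM. Brown adipose tissue and heart differed 1.20-fold, which 1 library each cannot separate, whereas small intestine stood 28.4-fold above brain. Cox7a2 moved far less, from 20.4 FPKM in brain to 67.0 in brown adipose tissue, with white adipose tissue, liver and TA muscle between 22.2 and 22.96. The share of Cox7a1 was 91.1% in heart, 89.5% in TA muscle, 88.3% in brown adipose tissue, 55.4% in small intestine, 8.42% in brain, 3.39% in white adipose tissue and 1.24% in liver. In small intestine the brown fat genes Ucp1 and Cidea were at 0 and 0.763 FPKM and the skeletal muscle gene Acta1 at 3.20, while Acta2, smooth muscle actin, was at 79.1 FPKM. White adipose tissue held nearly as much Acta2, 69.7 FPKM, with 0.778 FPKM of Cox7a1. The part of smooth muscle in the intestinal Cox7a1 was not tested.

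Cox8b, the muscle form of another small membrane subunit, was at 214 FPKM in brown adipose tissue, 75.5 in TA muscle and 56.7 in heart. White adipose tissue held 0.511 FPKM, 111-fold below heart, and brain, liver and small intestine were listed at 0. Cox8a was high nearly everywhere, at 1757 FPKM in brown adipose tissue, 949 in small intestine, 819 in white adipose tissue, 694 in brain and 466 in liver, and was lowest in heart, at 175, and TA muscle, at 56.4. The share of Cox8b therefore passed that of Cox8a in TA muscle alone, at 57.2%, and was 24.5% in heart and 10.9% in brown adipose tissue, although brown adipose tissue held the most Cox8b. In heart and TA muscle, Cox8b had the lowest share of the 3 muscle-type isoforms.

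Cox4i1 was the more even member of the first pair, between 224 FPKM in liver and 962 in brown adipose tissue, with 659 in heart, 463 in TA muscle, 449 in small intestine, 289 in brain and 258 in white adipose tissue. Cox4i2 stayed a minor isoform in all 7. It was at 29.9 FPKM in heart, 21.7 in white adipose tissue, 16.0 in brown adipose tissue, 10.3 in TA muscle, 8.50 in small intestine and 7.09 in brain, and at 0.147 in liver, 48.2-fold below brain. Its share of the pair was 7.76% in white adipose tissue, 4.34% in heart and between 1.63% and 2.39% in brown adipose tissue, small intestine, TA muscle and brain, and 0.0655% in liver. The 11 markers of mural cells, the pericytes and smooth muscle cells around vessels, summed to 245 FPKM in heart, 366 in white adipose tissue, 217 in brown adipose tissue, 151 in TA muscle, 430 in small intestine, 59.8 in brain and 20.5 in liver, where 2 of the 11 were at 0.

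The genes whose log2(FPKM + 1) over the 7 tissues was most like that of each isoform were listed among 10409 genes reaching 10 FPKM in at least 1 tissue, as a description over 7 libraries that share tissue composition. For Cox4i2 they were Ndufa4l2, a mural cell marker (Pearson r = 0.97), Bcam and Podxl. For Cox6a2 they were the sarcomere gene Actn2 (r = 0.99), Ank1 and Pgam2, the muscle phosphoglycerate mutase. For Cox7a1 they were the complex I genes Ndufv2 (r = 0.99) and Ndufa8 with Atp5o of ATP synthase, and for Cox8b Cpt1b (r = 0.98), the muscle form of carnitine palmitoyltransferase, Ndufb4 of complex I and Mrps21 of the mitochondrial ribosome. Among the general isoforms, Cox4i1 was nearest to Gm10108 (r = 0.998) and Gm10053, pseudogenes in which 266 of 295 and 897 of 922 windows of 25 bases were also found in Cycs, the cytochrome c gene, and to Ndufab1. Cox7a2 was nearest to Afg3l2, Ppargc1b and Ndufa12. Cox6a1 (Slc25a51, Itprid2, Eno1) and Cox8a (Ppp1r10, Eno1, Foxred1) shared 1 of 3 neighbours, and their own r was 0.96. Within pairs r was 0.58 for Cox4i1 with Cox4i2, 0.75 for Cox7a1 with Cox7a2, -0.33 for Cox8a with Cox8b and -0.80 for Cox6a1 with Cox6a2.

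In cold iWAT Cox7a1 was the isoform with the largest difference between genotypes, and it was lower in MCK-Musclin mice. It was at 80.7, 177 and 196 FPKM in WT 1, 2 and 3 and at 90.5, 40.1 and 11.7 FPKM in the libraries labelled MCK-Musclin 1, 2 and 3. MCK-Musclin 2 and 3 lay below every WT library, but MCK-Musclin 1 lay above WT 1, so that the groups overlapped. The means were 151 ± 61.8 and 47.4 ± 39.9 FPKM (SD, n = 3), the log2 fold change was -1.97 ± 0.69 (SE) on log2(FPKM + 1), and limma gave an adjusted p of 0.228. The cutoff of the study for iWAT was taken, which it applied to DESeq2 results. A gene was called where the unadjusted limma p was under 0.05 and the log2 fold change beyond 0.5. By this rule 1 of the 8 isoforms, Cox7a1, was called lower, against 0.902% of the 12197 genes tested, and 0 were called higher, against 5.04%. At an adjusted p under 0.05 limma called 0 genes of any kind in iWAT, with 16.5% of genes at an unadjusted p under 0.05.

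Without the library labelled MCK-Musclin 1 the log2 fold change of Cox7a1 was -2.64 (limma, adjusted p = 0.192), with the 2 remaining libraries below all 3 WT libraries. Without WT 2 it was -1.81 and without WT 3 it was -1.74, and the call was lost in both. Without MCK-Musclin 3 it was -1.21 and was still called.

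Cox8b, the other brown fat marker among the isoforms, was at 52.9, 92.8 and 70.3 FPKM in WT and at 65.9, 42.4 and 27.9 FPKM in MCK-Musclin libraries. As for Cox7a1, MCK-Musclin 2 and 3 were the lowest and MCK-Musclin 1 lay above WT 1. The log2 fold change of -0.70 ± 0.32 did not pass the cutoff (limma, adjusted p = 0.328). It passed without MCK-Musclin 1, at -1.01, without WT 1, at -0.90, and with median-ratio scaling, at -0.78. Over the fits that each left out 1 library it ranged from -1.01 to -0.40, with an unadjusted limma p of up to 0.20.

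Cox4i2 and Cox4i1 were the isoforms whose groups did not overlap, in opposite directions. Cox4i2 was at 33.0, 31.2 and 29.2 FPKM in WT and at 36.9, 39.8 and 50.9 FPKM in MCK-Musclin libraries, so that the lowest MCK-Musclin value exceeded the highest of WT. The difference of 0.42 ± 0.13 on the log2 scale (limma, adjusted p = 0.1998) was under the cutoff of 0.5, and without the library labelled MCK-Musclin 1 it was 0.52 and passed. Leaving out each library in turn gave 0.29 to 0.52. Cox4i1 was at 412, 400 and 419 FPKM in WT and at 361, 372 and 314 FPKM in MCK-Musclin libraries, a difference of -0.24 ± 0.10 on the log2 scale (adjusted p = 0.314 by limma), and -0.26 without MCK-Musclin 1. Of all genes tested, 17.9% had every MCK-Musclin library above and 5.44% every one below the WT libraries, so that 1 of 8 isoforms above WT was no more than the background.

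The other 4 isoforms did not pass the test in iWAT. Cox6a2 was at 0.397, 7.22 and 22.6 FPKM in WT and at 0.592, 2.47 and 2.23 FPKM in MCK-Musclin libraries (log2 fold change -1.31 ± 0.93, adjusted p = 0.516 by limma), and the WT libraries alone spanned the full range. Without WT 1 it was -2.41 and was called. Fits that each left out 1 library ranged from -2.41 to -0.37, and no other of them called it. Cox6a1 was at 109, 129 and 109 against 113, 101 and 96.3 FPKM (log2 fold change -0.15, adjusted p = 0.525 by limma). Cox7a2 was at 33.2, 36.8 and 35.1 against 34.7, 28.5 and 26.1 FPKM (log2 fold change -0.24, adjusted p = 0.376 by limma), and Cox8a at 1124, 1123 and 1157 against 1195, 1060 and 1115 FPKM (log2 fold change -0.02, adjusted p = 0.957 by limma). Without MCK-Musclin 1 these 4 were not called either, at -0.95 for Cox6a2, -0.22 for Cox6a1, -0.35 for Cox7a2 and -0.06 for Cox8a. With all libraries Cox8a was the steadiest isoform, with a mean in MCK-Musclin of 0.990 times the WT mean. In all, 7 of the 8 log2 fold changes were below 0, against 38.7% of all genes tested, with a median of -0.24 against 0.06. Centred on the general adipocyte markers, which moved the median of all genes to 0.26, Cox6a1 and Cox8a were at 0.05 and 0.18, above 0 and below that median. Against the median of all genes, 7 of 8 isoforms were lower under each of the 4 other scalings tried. The split over all genes moved with scaling too, from 110 called lower and 615 higher as deposited to 184 and 428 with median-ratio scaling and 26 and 1815 when centred.

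**Figure D2:**
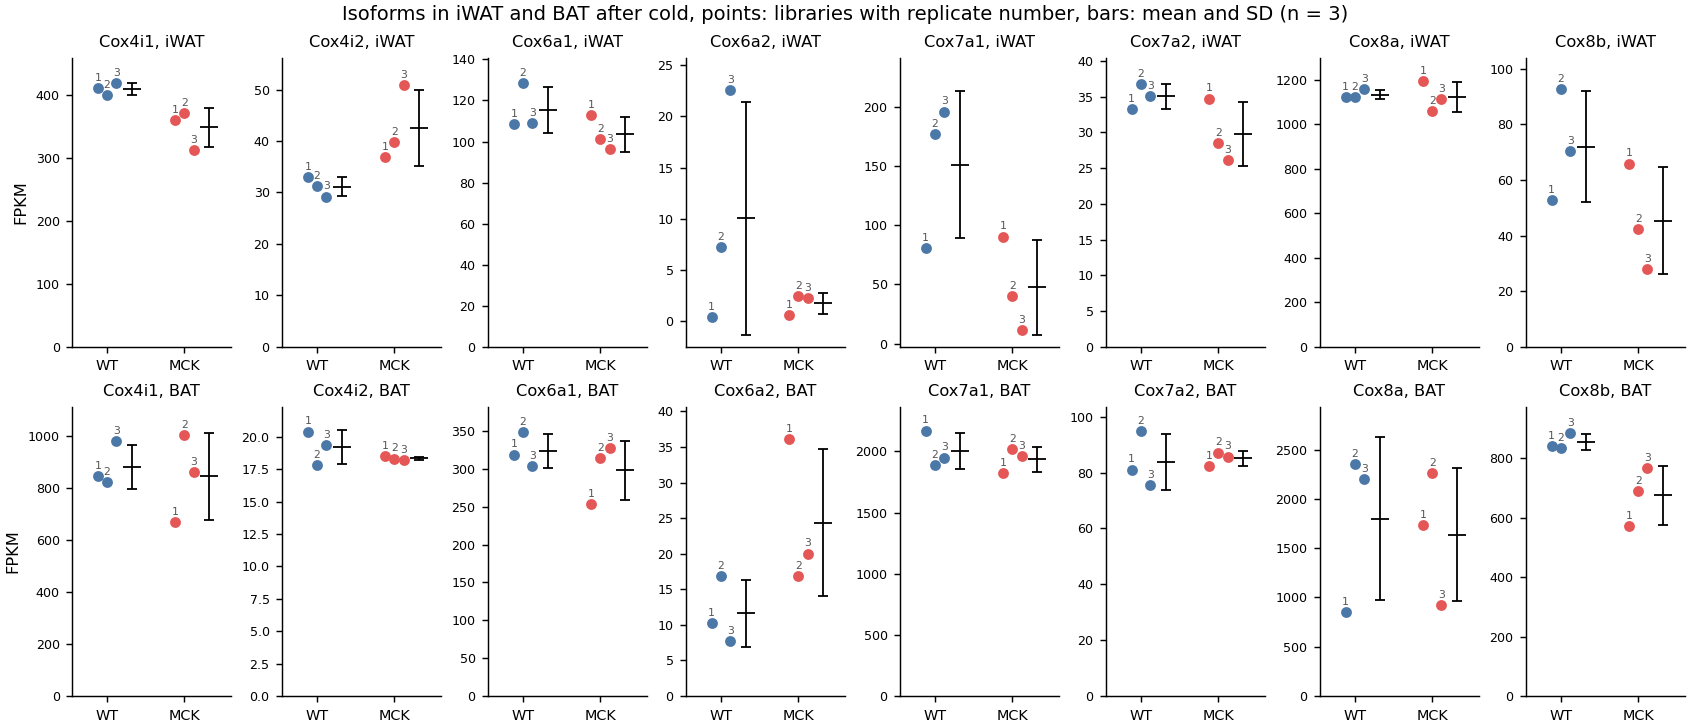
FPKM of the 8 isoforms in cold iWAT (top) and cold BAT (bottom), with points for libraries labelled by replicate number, WT in blue and MCK-Musclin in red, and bars for the mean and SD of 3 libraries. In iWAT the Cox7a1 values of MCK-Musclin 2 and 3 lie below all WT values while MCK-Musclin 1 lies among them, and in BAT the 2 low Cox8a values belong to 1 library of each genotype.

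The library order of Cox7a1 in iWAT was that of Ucp1 and of Cidea, a lipid droplet protein of brown fat. Ucp1 was at 130, 248 and 346 FPKM in WT and at 173, 31.6 and 2.91 FPKM in MCK-Musclin libraries, with the highest value in WT 3 and the lowest in MCK-Musclin 3. The order was not that of every brown fat gene: for Ppargc1a, a transcriptional coactivator of mitochondrial genes, and for Kcnk3 and Prdm16 every WT library lay above MCK-Musclin 1, unlike for Cox7a1. For Cox8b, WT 2 and WT 3 changed places and the rest of the order was the same. Of the 14 brown and beige markers, 9 were called lower and 0 higher in iWAT, against 0.902% and 5.04% of all genes tested. The count of these markers called lower was 11 without MCK-Musclin 1 but 1 without MCK-Musclin 2 or MCK-Musclin 3. It was 2 without WT 3, 3 without WT 2, 7 without WT 1 and 5 when centred. Their summed level was 475 to 855 FPKM in WT and 95.9 to 523 FPKM in MCK-Musclin libraries. The 13 general adipocyte markers summed to 18072 to 19200 FPKM in WT and 16122 to 17844 FPKM in MCK-Musclin libraries, with 0 called. The ratio of Cox7a1 to Ucp1 was 0.566 to 0.713 in WT and 0.522, 1.27 and 4.0004 in MCK-Musclin libraries, and that of Cox8b to Ucp1 was 0.203 to 0.407 in WT and 0.380, 1.34 and 9.57. In both ratios MCK-Musclin 2 and 3 were above all WT libraries.

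For Cox6a2 the order in iWAT was that of Acta1, skeletal muscle actin, at 1.11, 36.9 and 311 FPKM in WT and 1.48, 15.2 and 10.2 FPKM in MCK-Musclin libraries. The order of Ckm differed, at 0, 14.0 and 87.2 FPKM in WT and 0, 2.16 and 2.63 FPKM in MCK-Musclin libraries, and the ratio of Cox6a2 to Ckm was 0.515 and 0.259 in WT 2 and 3 and 1.14 and 0.850 in MCK-Musclin 2 and 3. The 19 fast muscle markers summed to 18.0 to 4989 FPKM in WT and 19.9 to 211 FPKM in MCK-Musclin iWAT, and 3 of the 19 were at 0 in a WT library and 2 in an MCK-Musclin library. Without WT 1, where Cox6a2 was called lower, 17 of these markers were called lower too, against 0 with all libraries. Without MCK-Musclin 1 the count was 0. Of the slow muscle markers 0 of 3 tested were called, and 2, Myh7 and Tnnt1, were called higher without WT 3. Of 9 cardiac markers only Tnnt2 (0.61) and Tnni3 (0.50) were tested in iWAT, and both were called higher, against 5.04% of all genes tested. Tnnt2 lay near the minimum mean of 1 FPKM for a test. Its mean log2(FPKM + 1) was 0.88 in WT and 1.49 in MCK-Musclin libraries, so its entry depended on the MCK-Musclin values. All 4 in the table summed to 4.42 to 5.53 FPKM in WT and 6.81 to 8.66 FPKM in MCK-Musclin libraries. Tnnt2 alone was called without MCK-Musclin 1. The part of muscle in Cox6a2 was not tested. Beside the higher Cox4i2, 0 of the 11 mural markers were called, with or without MCK-Musclin 1, and their sums were 208 to 287 FPKM in WT and 222 to 339 FPKM in MCK-Musclin libraries. Of the 10 T cell and B cell markers 8 were called higher, against 5.04% of all genes tested in iWAT, and 9 without MCK-Musclin 1. Their sums were 206 to 316 FPKM in WT and 390 to 475 FPKM in MCK-Musclin libraries. The part of these cells in Cox4i2 was not tested.

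**Figure D3:**
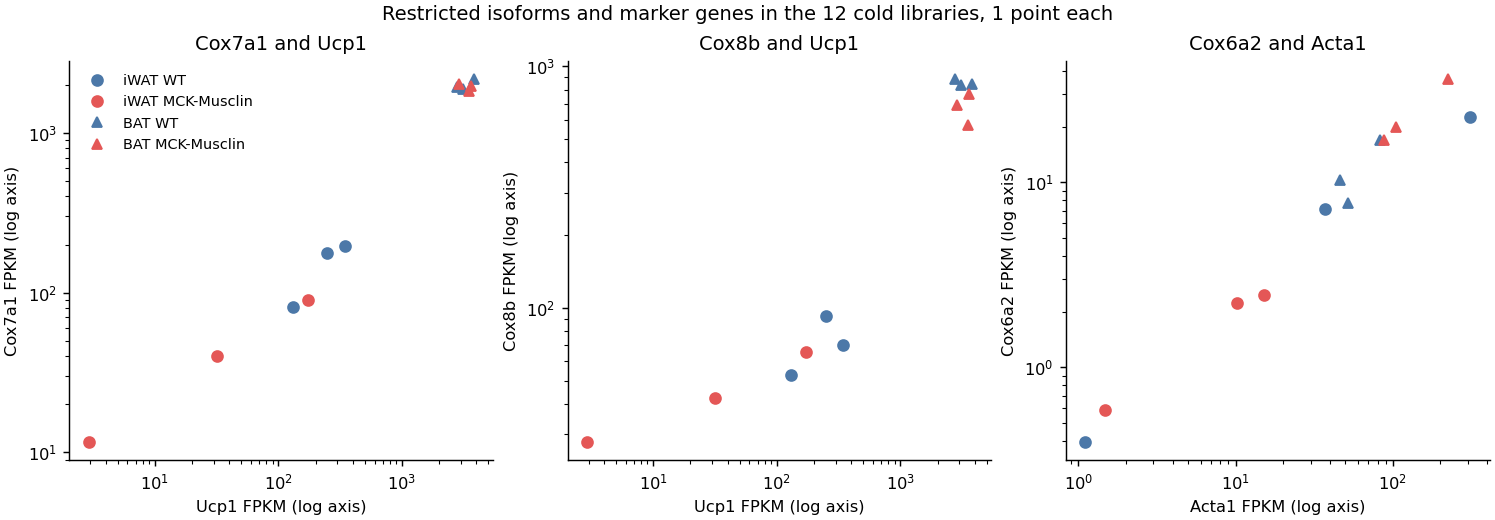
Restricted isoforms against marker genes in the 12 cold libraries (both axes log, FPKM), with circles for iWAT, triangles for BAT, blue for WT and red for MCK-Musclin. Cox7a1 and Cox8b are low in the iWAT libraries with little Ucp1, down to 11.7 and 27.9 FPKM at 2.91 FPKM of Ucp1, and Cox6a2 is highest in the library with the most Acta1, at 311 FPKM of Acta1 in iWAT and 223 in BAT. The tables were scaled separately, so positions of iWAT and BAT are not compared.

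In cold BAT Cox8b and Cox6a2 were called, in opposite directions, and Cox7a1 differed little between libraries. Cox8b was at 843, 836 and 885 FPKM in WT and at 571, 690 and 768 FPKM in MCK-Musclin libraries, and the highest MCK-Musclin value stayed under the lowest of WT. The log2 fold change was -0.35 ± 0.11, past the cutoff of 0.3 that the study used for BAT, with an adjusted p of 0.968 by limma. The call was lost without MCK-Musclin 1, at -0.23, without WT 3, at -0.32, and when centred on the general adipocyte markers, at -0.25. Cox6a2 was at 10.3, 16.852 and 7.71 FPKM in WT and at 36.1, 16.858 and 20.01 FPKM in MCK-Musclin libraries, so that the groups did not overlap but WT 2 and MCK-Musclin 2 were nearly equal. Its log2 fold change was 1.00 ± 0.33 (limma, adjusted p = 0.968), and the call was lost without WT 1 (0.95), WT 3 (0.76) or MCK-Musclin 1 (0.68).

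Thus 1 of 8 isoforms was called lower, against 2.15% of the 10893 genes tested in BAT, and 1 of 8 higher, against 1.85%. The same 2 were the isoforms whose groups did not overlap, against 5.63% of genes below and 4.38% above. At an adjusted p under 0.05 limma called 1 gene of 10893 (0.00918%), which was none of the isoforms, and 4.89% had an unadjusted p under 0.05.

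The 19 fast muscle markers summed to 555 to 880 FPKM in WT and 921 to 2018 FPKM in MCK-Musclin BAT. Beside Cox6a2, 16 of the 18 tested were called higher, against 1.85% of all genes tested in BAT. The count was 10 without WT 1 or WT 3 and between 12 and 17 without any other library. Ckm was at 11.3, 18.6 and 11.7 FPKM in WT and 36.5, 17.6 and 25.1 FPKM in MCK-Musclin libraries, and the ratio of Cox6a2 to Ckm stayed within 0.661 to 0.906 in WT and 0.796 to 0.990 in MCK-Musclin. The cardiac markers summed to 0.312 to 1.06 FPKM in WT and 0.794 to 2.14 FPKM in MCK-Musclin BAT, at or near 0, and were not tested there. Of the 5 slow muscle markers 0 were called, but all 5 were called higher without MCK-Musclin 3. Beside Cox8b, 0 of the 14 brown and beige markers were called in BAT, with sums of 6613 to 7711 and 6268 to 7630 FPKM. The part of muscle in these differences was not tested.

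The remaining isoforms were not called in BAT. Cox7a1 was at 2169, 1887 and 1950 FPKM in WT and 1824, 2019 and 1961 FPKM in MCK-Musclin libraries (log2 fold change -0.05 ± 0.08, adjusted p = 0.983 by limma), and Cox7a2 at 81.1, 94.8 and 75.5 against 82.3, 87.2 and 85.8 FPKM (0.03, adjusted p = 0.993 by limma). Cox4i1 was at 845, 824 and 980 against 670, 1003 and 861 FPKM and Cox4i2 at 20.4, 17.8 and 19.4 against 18.5, 18.3 and 18.2 FPKM, with log2 fold changes of -0.08 and -0.06. Cox6a1 was at 319, 348 and 304 against 253, 314 and 327 FPKM (log2 fold change -0.12). Cox8a behaved unlike the rest, with 850 FPKM in WT 1 and 920 in MCK-Musclin 3 but 2350 and 2196 in WT 2 and 3 and 1734 and 2257 in MCK-Musclin 1 and 2. Its spread was therefore between libraries of the same genotype (log2 fold change -0.10 ± 0.45). In all, 6 of 8 log2 fold changes were below 0, against 52.3% of all genes tested, with a median of -0.07 against -0.01, and Cox4i1, Cox4i2, Cox7a1 and Cox8a came to between 0.0041 and 0.05 when centred on the general adipocyte markers.

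Shares within a pair are made inside 1 library and do not move with its scaling. In iWAT Cox7a1 made up 70.9%, 82.8% and 84.8% of the Cox7a pair in WT and 72.3%, 58.4% and 30.9% in MCK-Musclin libraries, a mean of 79.5% ± 7.55 against 53.9% ± 21.1 (SD, n = 3; exact permutation p = 0.2). The order of the 2 isoforms was turned in MCK-Musclin 3 alone, where Cox7a2 exceeded Cox7a1. Without the library labelled MCK-Musclin 1 the difference was -34.8 points (exact permutation p = 0.1). With 3 libraries against 3 the smallest two-sided exact p is 0.1, so no share could pass 0.05 within a tissue.

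The share of Cox4i2 in iWAT was 7.42%, 7.24% and 6.51% in WT and 9.27%, 9.65% and 14.0% in MCK-Musclin libraries, 7.06% ± 0.484 against 10.96% ± 2.61 (exact permutation p = 0.1), without overlap. Cox8b made up 4.50%, 7.64% and 5.73% of its pair in WT and 5.23%, 3.85% and 2.44% in MCK-Musclin iWAT (exact permutation p = 0.2). For Cox6a2 the shares were 0.364%, 5.32% and 17.2% against 0.522%, 2.38% and 2.27% (exact permutation p = 0.4). Without MCK-Musclin 1 the differences were 4.75 points for Cox4, -2.81 for Cox8 and -5.30 for Cox6a (exact permutation p = 0.1, 0.2 and 0.7).

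In BAT the Cox7a pair was almost fixed, with 96.4%, 95.2% and 96.3% Cox7a1 in WT and 95.7%, 95.9% and 95.8% in MCK-Musclin libraries (exact permutation p = 0.8). Cox6a2 was the BAT share without overlap, at 3.12%, 4.61% and 2.48% in WT and 12.5%, 5.09% and 5.77% in MCK-Musclin libraries (3.40% ± 1.10 against 7.78% ± 4.08, exact permutation p = 0.1). Cox4i2 stood at 2.36%, 2.12% and 1.94% against 2.69%, 1.79% and 2.07% (exact permutation p = 0.9). The Cox8b share was 49.8%, 26.2% and 28.7% in WT and 24.8%, 23.4% and 45.5% in MCK-Musclin libraries (exact permutation p = 0.5), with the highest value of each genotype in the library that was low in Cox8a. Adjusted over the 8 comparisons of shares, the smallest p was 0.4.

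**Figure D4:**
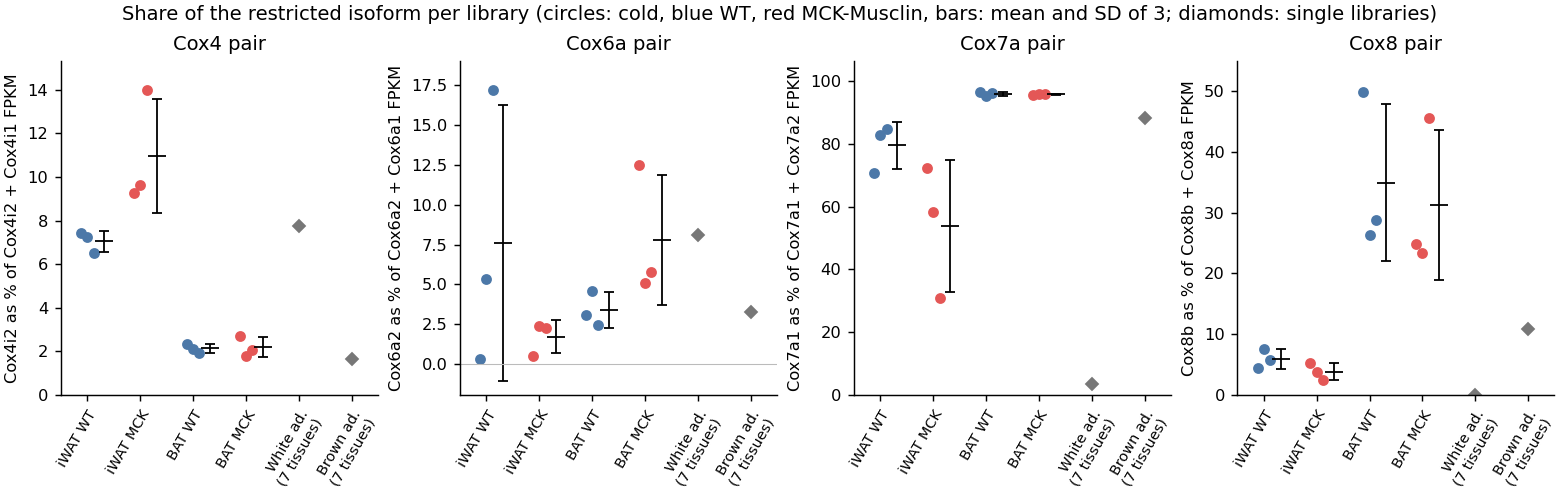
Restricted isoform as percent of the FPKM of its pair, with circles for cold iWAT and BAT libraries (WT blue, MCK-Musclin red), bars for the mean and SD of 3 libraries, and diamonds for the single white and brown adipose libraries of the 7 tissues. The Cox7a1 share spans 30.9% to 84.8% in iWAT and 95.2% to 96.4% in BAT.

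Whether genotype moved a share differently in iWAT and BAT was tested by permuting genotype within each tissue (400 permutations, smallest p 0.005). The labels of the tissues were permuted independently, which takes iWAT and BAT libraries as coming from different mice. That was not known, and with shared mice these p-values would not hold. They are also exact only where genotype has no effect on the share in either tissue, and unequal spread can make them small. The Cox6a2 share in iWAT had an SD of 8.64 points in WT and 1.04 in MCK-Musclin libraries. The change in iWAT minus that in BAT was -25.4 points for the Cox7a pair (exact permutation p = 0.165), 3.86 points for Cox4 (p = 0.06, exact), -10.3 points for Cox6a (p = 0.045, exact) and 1.57 points for Cox8 (p = 0.73, exact). Adjusted over the 4 pairs, the p-values were 0.22, 0.12, 0.12 and 0.73, none under 0.05. On the log2 ratio of the isoforms the Cox6a difference was -2.47 (exact permutation p = 0.185).

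The single adipose libraries of the 7 tissues, from mice whose temperature was not labelled as cold, stood beside the cold ones as follows. Cox7a1 was at 0.778 FPKM in white adipose tissue, where Ucp1 was at 0, and at 508 FPKM in brown adipose tissue, where Ucp1 was at 467, against 80.7 to 196 FPKM in cold WT iWAT and 1887 to 2169 FPKM in cold WT BAT. Cox8b was at 0.511 and 214 FPKM against 52.9 to 92.8 and 836 to 885 FPKM. Cox7a2 was at 22.2 and 67.0 FPKM against 33.2 to 36.8 and 75.5 to 94.8 FPKM. The tables were made separately, the white depot of the 7 tissues was not labelled as inguinal and there was 1 library of each, so temperature, depot and table cannot be told apart.

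The other genes of complex IV gave a frame for these values. Of 10 other nuclear subunit genes, 8 were tested in each tissue. In iWAT 0 of 8 were called, and the groups of Cox6c and Ndufa4 did not overlap. All 8 log2 fold changes were below 0 (median -0.20, and 4 of 8 when centred, though all 8 were below the median of all genes). Of all genes tested in iWAT, 38.7% were below 0 and 5.44% had every MCK-Musclin library below WT. In BAT all 8 were below 0 as well (median -0.23, and 7 of 8 when centred or under any other scaling), and the groups of 4, Cox5b, Cox6b2, Cox7c and Ndufa4, did not overlap. Of all genes tested in BAT, 52.3% were below 0, 5.63% had every MCK-Musclin library below WT and 2.15% were called lower. There 2 of 8 were called lower and 0 higher: Cox5b, a zinc-binding subunit, at 685, 648 and 583 FPKM in WT and 449, 523 and 523 FPKM in MCK-Musclin libraries (log2 fold change -0.36, limma, adjusted p = 0.929), and Ndufa4, a subunit first assigned to complex I, at 206, 193 and 149 against 134, 147 and 148 FPKM (log2 fold change -0.34). Neither was called without MCK-Musclin 1 or when centred, and Ndufa4 was called in 1 of the 6 fits that each left out 1 library. The 3 mitochondrially encoded subunits were tested in BAT alone, where 0 were called (log2 fold changes -0.10 to -0.05). Of these 3, 0 were listed for iWAT, whereas they summed to 48995 to 53392 FPKM per library in BAT. The summed FPKM of iWAT and BAT libraries thus do not cover the same genes.

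Of 23 assembly and copper delivery factors, 0 were called in iWAT and 1, Cmc1, was called higher in BAT, against 1.85% of all genes there. The call of Cmc1 was lost without WT 2 or MCK-Musclin 1. Leaving out 1 library gave 0 to 2 called lower in iWAT, with Coa7 and Taco1 lower without MCK-Musclin 1, and 0 to 2 called higher in BAT, with 2 in 3 of the 6 fits. Of 4 partners, Cycs, which hands electrons to complex IV, was called lower in iWAT (148, 141 and 163 against 149, 90.8 and 85.4 FPKM, log2 fold change -0.52, limma, adjusted p = 0.277), with MCK-Musclin 2 and 3 again the lowest, a call kept without MCK-Musclin 1 and lost without any other library or when centred, and 0 were called in BAT. Of all genes tested in iWAT, 0.902% were called lower. Cox7a2l, a paralog of the Cox7a pair that takes part in supercomplex formation, was above WT in every MCK-Musclin iWAT library (log2 fold change 0.20) and below WT in every MCK-Musclin BAT library (-0.24), without passing the cutoff in either. Of all genes tested, 17.9% lay above WT in this way in iWAT and 5.63% below WT in BAT. None of the adjusted p-values of complex IV genes was under 0.05 in either tissue.

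**Figure D5:**
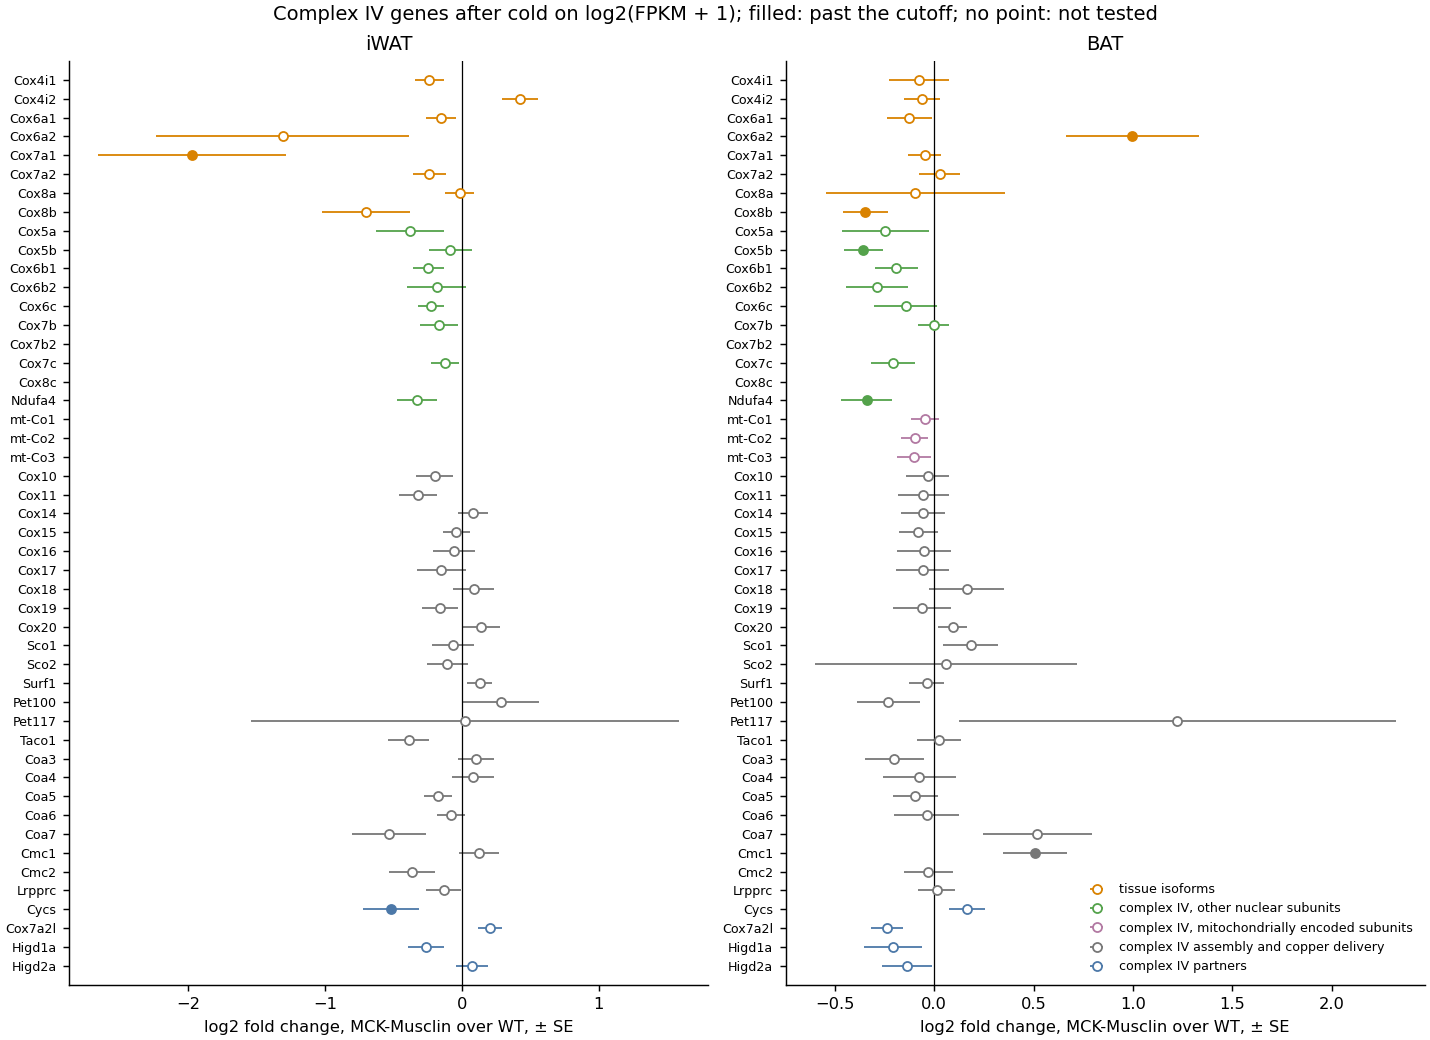
log2 fold change on log2(FPKM + 1), MCK-Musclin over WT, with SE (limma, 3 against 3 libraries), for the 8 isoforms and the other complex IV genes in iWAT (left) and BAT (right). Filled points passed the cutoff (unadjusted p under 0.05 and log2 fold change beyond 0.5 or 0.3), which Cox7a1 and Cycs did in iWAT, and Cox8b, Cox6a2, Cox5b, Ndufa4 and Cmc1 in BAT.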

How the data were processed

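RNA-Seq libraries of mouse tissue were prepared with a SMART kit. Per the study's methods, the authors filtered reads with fastp 0.20.0 and Bowtie2, aligned them without strand to mm10 with HISAT2 2.1.0 and deposited FPKM calculated with StringTie 2.0. The labels list Bowtie2 2.4.1 and Cuffdiff as well. The iWAT table also held the authors' own comparison (fold changes and p-values), which was not used. No read counts were given, so the depth of each library is unknown.

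Repeated gene lines (287 in the 7-tissue and the BAT table) were dropped. For each cold tissue, genes with a mean of at least 1 FPKM entered limma 3.58.1 (R 4.3.3; trended variance) on log2(FPKM + 1), 3 against 3 libraries over all genes, with Benjamini-Hochberg adjustment. Fold changes on this scale understate those of low genes. A call took an unadjusted p under 0.05 and a log2 fold change beyond 0.5 (iWAT) or 0.3 (BAT), the cutoffs of the study. The study applied them to DESeq2 results (Wald test), so the calls made here are not those of the study. Shares within pairs were compared by two-sided exact permutation tests (Python 3.11.15, NumPy 2.4.6). The scripts were tested on simulated data with known changes. The named genes were the 8 isoforms, called genes of the complex IV lists, the markers set beside them and the 3 genes most alike over the 7 tissues. The isoforms and lists were chosen with earlier results of these data known. The study stated that RNA-Seq used biologically independent animals in each group, and the labels did not say which animal gave which library. Alternatives were pseudocounts, filters, scalings, variance models, a replicate block and leaving out each library. Deviations of same-numbered WT and MCK-Musclin libraries correlated at 0.235, 0.0615 and 0.107 in iWAT and at -0.0951, -0.00463 and 0.00937 in BAT. Those of libraries with other numbers correlated at -0.180 to 0.0702 in iWAT and at -0.0842 to 0.0795 in BAT. In iWAT all same-numbered values were thus above 0, and that of number 1 was the highest. The labels named no pairs, so numbers entered as a block in an alternative fit only. Whether same-numbered libraries shared a batch was not tested.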

Additional observations from a re-analysis of the deposited data

Results flagged for a closer look

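The difference in the share of Cox6a2 between genotypes had opposite signs in iWAT and BAT, and this difference met p under 0.05 before adjustment. The mean share changed by -5.90 points in MCK-Musclin iWAT and by 4.38 points in MCK-Musclin BAT, a difference of -10.3 points (exact permutation p = 0.045, adjusted p = 0.12 over 4 pairs). These p-values take iWAT and BAT libraries as coming from different mice, which was not known. They are exact only where genotype has no effect on the share in either tissue, and unequal spread can make them small. The fast muscle markers summed to 18.0 to 4989 FPKM in WT and 19.9 to 211 FPKM in MCK-Musclin iWAT, with 0 of 18 called, and to 555 to 880 and 921 to 2018 FPKM in BAT, with 16 of 18 called higher. Their part in the difference was not tested.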

How the results depend on the processing

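Depth was unknown, so counting error could not be set beside any level, and with 3 libraries per group no share test within a tissue could pass 0.05. In iWAT the isoforms called lower numbered 2 with median-ratio scaling and 0 to 3 when each library was left out, and those called higher 1 when centred on adipocyte markers or with no log2 cutoff and 0 to 1 with libraries left out. In BAT the number called lower was 0 when centred, and libraries left out gave 0 to 1 in each direction. Log2 fold changes that turned when centred were Cox6a1 (0.0465) and Cox8a (0.185) in iWAT and Cox4i1 (0.0207), Cox4i2 (0.0387), Cox7a1 (0.0513) and Cox8a (0.0041) in BAT. Libraries left out turned Cox8a in iWAT (range -0.0613 to 0.0252, above 0 without MCK-Musclin 2) and, in BAT, Cox4i1 (-0.212 to 0.0787, above 0 without MCK-Musclin 1), Cox7a1 (-0.0893 to 0.0113, above 0 without WT 1), Cox7a2 (-0.0431 to 0.119, below 0 without WT 3) and Cox8a (-0.567 to 0.273, above 0 without WT 2, WT 3 or MCK-Musclin 3).

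With 1 library left out in turn, the change in share ranged in BAT from -0.206 to 0.241 points for Cox4, 2.03 to 5.72 for Cox6a, -0.549 to 0.0408 for Cox7a and -10.8 to 3.74 for Cox8, with further reversals at -0.0535 for Cox4 without WT 3 and 0.214 for Cox8 without MCK-Musclin 2. In iWAT it ranged from 2.40 to 4.75 for Cox4, -9.52 to -1.12 for Cox6a, -34.8 to -14.1 for Cox7a and -2.84 to -1.28 for Cox8. The difference between tissues ranged from 2.35 to 4.70 for Cox4, -13.9 to -5.50 for Cox6a, -34.7 to -14.0 for Cox7a and -5.86 to 8.71 for Cox8, with reversals for Cox8 at -5.86, -1.65 and -2.33 without WT 1, MCK-Musclin 1 and MCK-Musclin 2 of BAT. Cox4 passed 0.05 without WT 3 (3.95) or MCK-Musclin 1 (4.11) of BAT, and Cox6a failed it in 9 of 12 such fits. As a log2 ratio the difference was -2.47 for Cox6a, past 0.05 no longer, and -0.45 for Cox8, reversed. The causes were not tested beyond there being fewer libraries.

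With the replicate number as a block, Cox7a1 in iWAT and Cox8b and Cox6a2 in BAT were called as without it (limma, adjusted p = 0.287, 0.967 and 0.967), and calls over all genes were 154 lower and 620 higher in iWAT and 246 and 214 in BAT. Counts for marker and complex IV lists with libraries left out or other scalings were added after seeing the data. Of all alternative values, 441 kept direction and side of the threshold, 22 moved, 22 reversed, 9 passed newly and 18 no longer passed.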
